A study of Homo sapiens with 108 samples.

Results

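WSU-DLCL2 cells treated for 4 days with EPZ6438 at the lower of 2 doses were compared with WSU-DLCL2 cells kept in DMSO, the solvent control, for the same 4 days. The members were 6 of the 108 arrays of the series, chosen from their sample names: arrays A, B and C of the low dose at day 4 and arrays A, B and C of DMSO at day 4. WSU-DLCL2 is an established line of diffuse large B cell lymphoma, and the study's design text lists it among the lines with a Y641 mutation of EZH2. EPZ6438, also called tazemetostat, is a small molecule that inhibits EZH2. The labels name its doses LCC and 10xLCC, set separately for each line; what concentration LCC stands for the sources used here do not give. The 10xLCC arrays of day 4, and the DMSO and LCC arrays of days 2 and 6, each 3 arrays of the same line, served to place the day 4 values. Every group, the controls included, is the same line and carries the same EZH2 mutation, and 1 line with 1 genotype stands for no other. Total RNA was measured on Affymetrix arrays. The labels do not say whether arrays A to C came from separate cultures, so the p-values measure a spread between arrays that may be technical. That spread was estimated within the 9 groups of all 27 arrays of the line, not from the 6 compared arrays alone.

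EZH2 is the catalytic subunit of Polycomb repressive complex 2 (PRC2), which methylates lysine 27 of histone H3 and so holds developmental and cell type genes silent. In germinal centre B cells EZH2 is abundant, restrains genes of cell cycle exit and of differentiation, and its Y641 mutations raise trimethylation of that lysine. The mark is thinned out by cell division once the enzyme is blocked, so genes are released over days. No histone mark was measured on these arrays.

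Levels are given as log2 of the deposited intensity, a difference of 1 being 2-fold, and a change is LCC minus DMSO with its standard error. Of 18847 genes tested with limma, 5420 (28.8%) passed a Benjamini-Hochberg adjusted p of 0.05, 3075 of them higher at LCC (16.3%) and 2345 lower (12.4%). The words rose and fell are used for such genes. Each gene is given by its brightest probe set, and its other probe sets need not agree. Of 3388 called genes with several probe sets, 2097 had all of them changing in the same direction. Most changes were small: 371 genes rose at least 2-fold (1.97%) and 293 fell at least 2-fold (1.55%), while 28 rose and 17 fell at least 4-fold. The median change over all genes tested was -0.01. The 6 arrays were distinct measurements, with 8 to 24 identical values between any pair, and DMSO array A lay farthest from its group, at a root mean square distance of 0.293 against 0.201 to 0.233 for the other 5. Leaving out DMSO array A turned the split to 2494 risen and 2600 fallen genes. In bulk RNA, fewer cells of a kind and less RNA per cell cannot be told apart.

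**Figure D1:**
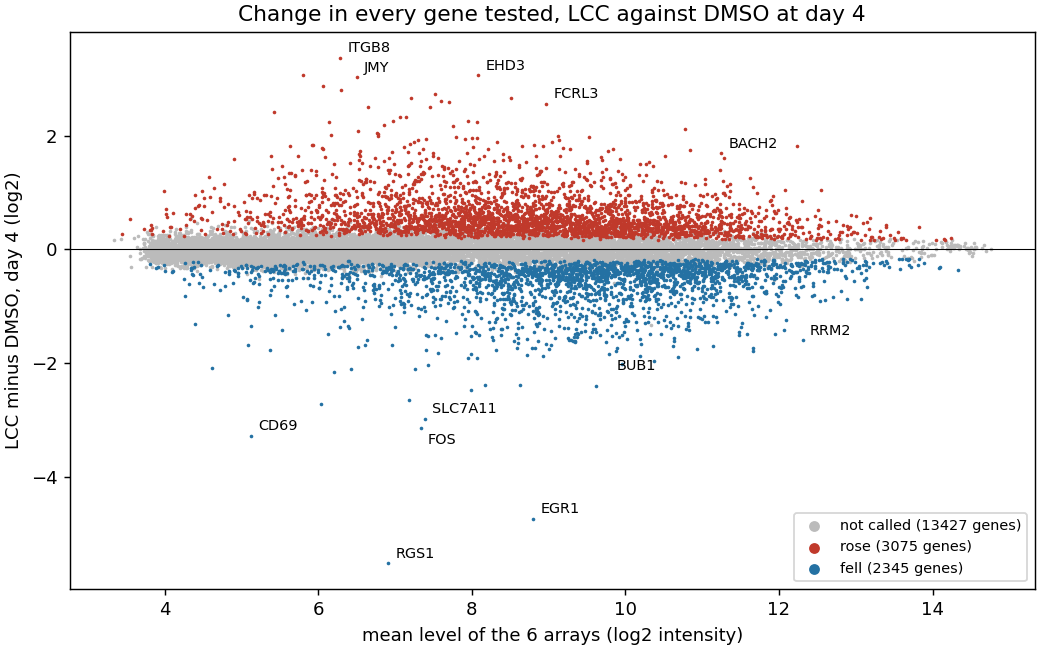
Each point is 1 of the 18847 genes tested; the horizontal axis is its mean log2 intensity on the 6 arrays and the vertical axis its log2 change, LCC minus DMSO at day 4. The 3075 genes that rose are red and the 2345 that fell are blue; RGS1 and EGR1 lie lowest and ITGB8 highest.

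Calls were rare among dim genes. Of genes with a mean under log2 5 over the 27 arrays of the line 2.38% rose and 2.05% fell, against 25.2% and 25.5% of genes at 9 or more. That a dim gene was not called does not show that it did not change. The shares of genes tested given beside the list counts include these dim genes.

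The largest rises were in genes under log2 8 on every DMSO array. They encode cell surface, trafficking, cytoskeletal and nuclear proteins. ITGB8, the integrin beta subunit that helps activate latent TGF-beta, measured 4.07, 4.48 and 5.25 on the DMSO arrays and 8.17, 7.90 and 7.84 on the LCC arrays. The groups were far apart, a rise of 3.37 ± 0.23 on the log2 scale or 10.4-fold (adjusted p 3.3e-11, limma). The other probe sets of ITGB8 changed by 0.30 to 0.76. EHD3, an ATPase of endocytic recycling, was at 6.46, 6.59 and 6.61 in DMSO and 9.83, 9.56 and 9.47 at LCC. It rose by 3.07 ± 0.13 (limma adjusted p 1.1e-14), and all 3 of its probe sets rose. JMY, a nucleator of actin filaments that also acts as a p300 cofactor, was at 4.55, 5.14 and 5.29 in DMSO and 8.11, 8.01 and 7.95 at LCC. Its rise of 3.03 ± 0.16 on the log2 scale (limma adjusted p 6.6e-13) left a gap wider than either group's spread.

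MYOT, which encodes the muscle protein myotilin, was at 4.57, 4.07 and 4.16 in DMSO and reached 7.21, 7.38 and 7.39 at LCC. It rose by 3.06 ± 0.28 on the log2 scale (limma adjusted p 4.0e-09). FNDC1, a secreted protein with fibronectin domains, went from 6.89, 7.37 and 7.29 to 10.03, 9.89 and 9.62. The rise of FNDC1 was 2.66 ± 0.11 on the log2 scale (limma adjusted p 1.6e-14), and no LCC array came near a DMSO array. SETBP1, a nuclear protein that binds SET, was tightly grouped at 5.86, 5.88 and 5.91 in DMSO and at 8.55, 8.63 and 8.45 at LCC. It rose by 2.66 ± 0.10 on the log2 scale (limma adjusted p 4.0e-15). FCRL3, an Fc receptor-like protein of B cells, was at 7.41, 7.82 and 7.85 in DMSO and 10.34, 10.36 and 10.05 at LCC. Its rise was 2.56 ± 0.11 (limma adjusted p 2.2e-14).

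DLG2, a scaffold of synapses, measured 6.39, 5.86 and 6.21 in DMSO and 8.95, 8.75 and 8.95 at LCC and rose by 2.73 ± 0.14 on the log2 scale (limma adjusted p 3.1e-13). RAP1GAP2, which switches off the small GTPase Rap1, rose by 2.60 ± 0.16 on the log2 scale, from 6.52, 6.13 and 6.26 to 8.87, 8.95 and 8.90 (limma adjusted p 5.9e-12). The other 6 of the 15 largest rises were TBC1D9, LOC285097, DBNDD1, TARS3, EFCAB12 and AIG1, with changes between 2.42 and 2.88 on the log2 scale. In each of the 15 the 3 LCC arrays lay above the 3 DMSO arrays, as they did in 19% of all genes tested; this was part of how the 15 were picked. The change was called on 1 of the 3 probe sets of TBC1D9 and on 1 of the 2 of TARS3.

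**Figure D2:**
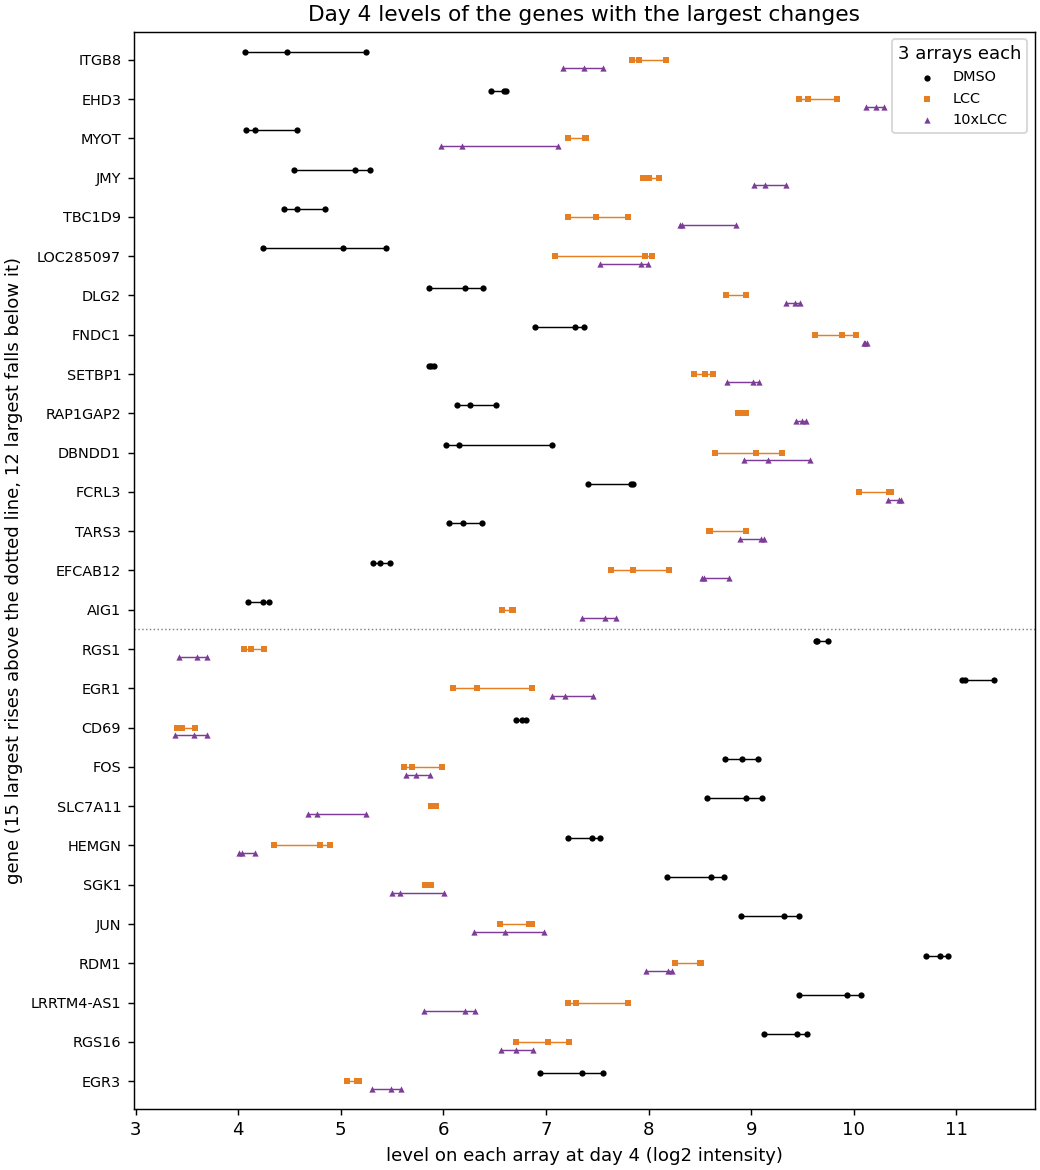
The log2 intensity on each array at day 4 (horizontal axis) for the 15 largest rises, above the dotted line, and the 12 largest falls, below it. Points are single arrays and lines join the lowest and highest of a group; DMSO circles and LCC squares do not overlap in any of the 27 genes, which is how they were picked.

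All 15 genes also rose at LCC on day 6, where 16.7% of genes tested rose, and 12 of the 15 rose on day 2, where 4.05% rose; these days have DMSO arrays of their own. The 3 without a call at day 2 were MYOT, LOC285097 and EFCAB12. The day 2 change of ITGB8 was 2.34 on the log2 scale and its day 6 change 3.31. EHD3 changed by 1.38 at day 2 and 3.34 at day 6. Of the 371 genes that rose at least 2-fold at day 4, 244 rose at day 2 and 357 at day 6.

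The largest falls were of another kind. At the head stood immediate early genes, which are switched on within minutes by receptor and MAPK signals, and genes that mark activated lymphocytes. EGR1, a zinc finger factor of this class, was at 11.08, 11.36 and 11.06 on the DMSO arrays and stood at 6.33, 6.09 and 6.86 at LCC. It fell by 4.74 ± 0.18 on the log2 scale, 26.7-fold (limma adjusted p 3.2e-15), on all 3 of its probe sets. FOS, a component of the AP-1 factor, measured 9.06, 8.91 and 8.74 in DMSO and 5.61, 5.70 and 5.99 at LCC. It fell by 3.14 ± 0.11 on the log2 scale (limma adjusted p 1.3e-15). JUN, the partner of FOS, was at 8.90, 9.32 and 9.46 in DMSO and 6.87, 6.83 and 6.55 at LCC and fell by 2.48 ± 0.16 on the log2 scale (limma adjusted p 1.3e-11). All 4 probe sets of JUN fell.

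RGS1, which damps chemokine receptor signals in B cells, had the largest change of any gene tested. It was at 9.63, 9.64 and 9.75 in DMSO and 4.13, 4.26 and 4.06 at LCC and fell by 5.53 ± 0.29 on the log2 scale (limma adjusted p 4.4e-13). CD69, the early activation antigen of lymphocytes, was at 6.77, 6.80 and 6.71 in DMSO and 3.45, 3.41 and 3.58 at LCC and fell by 3.28 ± 0.13 (limma adjusted p 6.6e-15). The CD69 levels at LCC lie under log2 4, the level below which a gene needed brighter arrays elsewhere to be tested at all. EGR3 fell by 2.15 ± 0.12 on the log2 scale, from 7.36, 6.94 and 7.55 to 5.16, 5.06 and 5.17 (limma adjusted p 1.6e-12). The other falls were those of SLC7A11, SGK1, HEMGN, RDM1, LRRTM4-AS1 and RGS16, between -2.98 and -2.39 on the log2 scale. HEMGN, a nuclear protein of blood progenitors, was at 7.22, 7.53 and 7.45 in DMSO and 4.89, 4.35 and 4.79 at LCC (change -2.72, limma adjusted p 4.2e-12).

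These falls were measured against DMSO cultures that differed from the DMSO cultures of the other days. Mean EGR1 in DMSO was 8.85 ± 0.07 at day 2, 11.17 ± 0.17 at day 4 and 6.68 ± 0.19 at day 6 (SD, n = 3 arrays each). At LCC it was 7.17 ± 0.35, 6.43 ± 0.39 and 7.22 ± 0.23 on the same days. The high point was thus the DMSO group at day 4, and the LCC groups of the 3 days differed far less. FOS followed the same course in DMSO, at 6.60 ± 0.08, 8.91 ± 0.16 and 6.37 ± 0.005, as against 6.19 ± 0.20, 5.77 ± 0.20 and 6.34 ± 0.06 at LCC. RGS1 in DMSO was at 6.25 ± 0.55, 9.67 ± 0.06 and 5.64 ± 0.34, and CD69 at 4.02 ± 0.09, 6.76 ± 0.05 and 3.85 ± 0.28. Day 4 was the highest for both. The LCC change at day 6 was 0.54 for EGR1, -0.03 for FOS, -0.35 for CD69 and -2.04 for RGS1 on the log2 scale, the last of these called (limma adjusted p 5.0e-06), as was that of EGR1 (limma adjusted p 0.025).

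**Figure D3:**
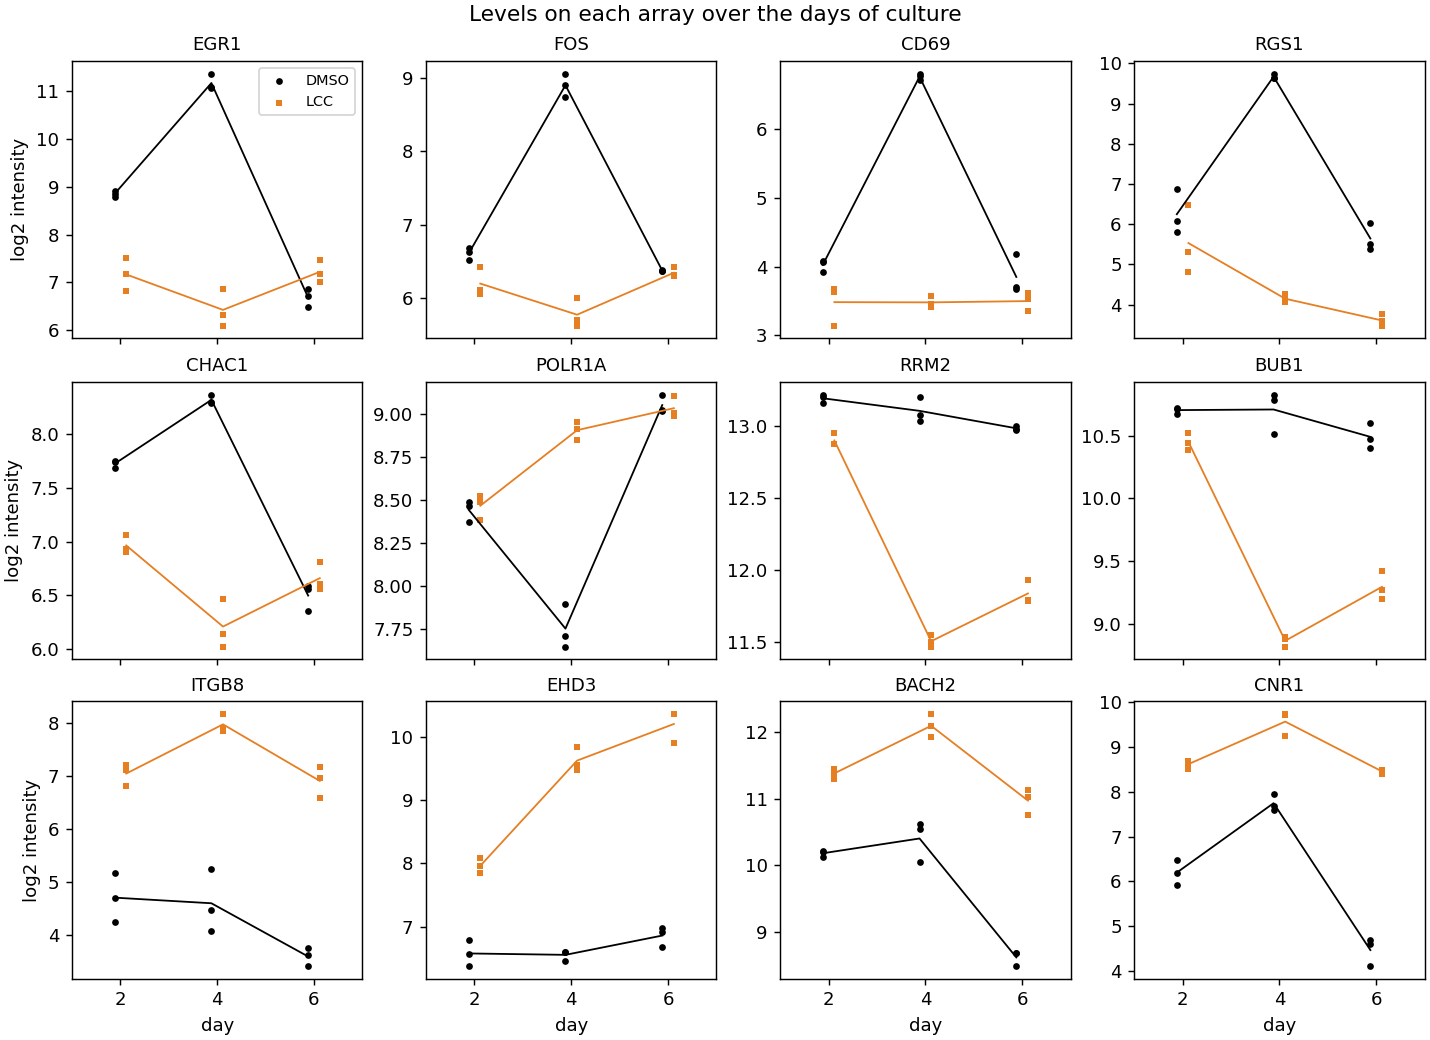
The log2 intensity on each array (vertical axis, scaled to each gene) at days 2, 4 and 6 (horizontal axis) in DMSO (black circles) and LCC (orange squares), with lines through the means of 3 arrays. EGR1, FOS, CD69, RGS1 and CHAC1 are highest and POLR1A lowest in DMSO at day 4, whereas ITGB8 and EHD3 differ between the treatments on every day.

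Across genes, DMSO at day 4 differed from DMSO at day 2 in 2651 (14.1%; 516, or 2.74%, higher and 2135, or 11.3%, lower at day 4), and DMSO at day 6 from DMSO at day 4 in 4733 (25.1%; 2779, or 14.7%, higher and 1954, or 10.4%, lower at day 6). These comparisons share the DMSO day 4 arrays with the comparison of LCC at day 4. Each day's DMSO arrays are 1 set of 3, so day and culture cannot be told apart. An alternative control, the mean of DMSO at days 2 and 6, was therefore added after the data were seen. Compared with it, 3249 of the 18847 genes tested rose at LCC on day 4 and 3721 fell. List counts against this control are to be read beside these numbers, not beside the 16.3% and 12.4% of the main comparison. Against it EGR1 changed by -1.34 on the log2 scale, RGS1 by -1.80, FOS by -0.72, CD69 by -0.46 and JUN by -0.48, and all 5 were called. EGR3 changed by 0.077 (limma adjusted p 0.66). The other 6 of the 12 largest falls changed by -3.11 (HEMGN), -1.93 (RGS16), -1.89 (SGK1), -1.76 (SLC7A11), -1.51 (RDM1) and -0.92 (LRRTM4-AS1), all called, so that the fall of HEMGN was larger against this control than against DMSO at day 4. The 15 largest rises ran from 1.95 (RAP1GAP2) to 3.82 (ITGB8) against it, all called.

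On a list of 19 MAPK feedback and immediate early genes, 11 fell (12.4% of genes tested fell), 1 rose and 7 were not called. The median change was -0.81. DUSP5 fell by 2.03 on the log2 scale, DUSP1 by 1.83 and DUSP6, which switches off ERK, by 0.71; SPRED2, an inhibitor of the pathway, rose by 0.84. These examples, and list members named further on that are not among the 3 of a list with the smallest p, were picked after their values were seen. In DMSO from day 2 to day 4, 12 of the 19 rose (2.74% of genes tested). From day 4 to day 6, 12 fell (10.4% of genes tested), the DMSO day 4 arrays being shared. The list's median was -0.11, with 9 fallen and 2 risen, against the mean of DMSO days 2 and 6 (3721 and 3249 of 18847 genes tested).

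The promoter of EGR1, the immediate early gene with the largest fall, is shown because it holds the motif of the factor that drives this class. Of 27305 RefSeq promoters of 300 bases (GRCh38.p14; 250 before and 50 after the start site), 1.29% hold a CArG box, the binding motif of serum response factor, searched on both strands. EGR1 holds 2 in this window, CCATATTAGG and CCATATATGG, which begin 105 and 83 bases before the start site and are in capitals in its 250 upstream bases (chr5:138465229-138465478, plus strand).
EGR1: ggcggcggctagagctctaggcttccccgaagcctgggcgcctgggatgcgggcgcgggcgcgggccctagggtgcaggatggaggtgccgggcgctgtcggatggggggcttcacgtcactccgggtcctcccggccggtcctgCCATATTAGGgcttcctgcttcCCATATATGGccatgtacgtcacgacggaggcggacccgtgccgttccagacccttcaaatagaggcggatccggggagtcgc
A match describes the letters and shows no binding. Of 15 promoters found for the MAPK feedback and immediate early list, 1 (6.67%), that of EGR1, held a CArG box in this window. Among genes that fell at least 2-fold 1.26% of 239 promoters held a CArG box, and among those that rose at least 2-fold 1.04% of 288, close to the share of all promoters.

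Genes of cell division fell in every member tested. All 31 tested members of a DNA replication list fell (12.4% of genes tested fell), with a median change of -1.001 and a range from -1.74 (MCM10) to -0.39 (MCM5). All 30 members of a mitosis list fell as well, by a median of -1.29, between -1.89 (DLGAP5) and -0.92 (CCNB1). RRM2, the small subunit of ribonucleotide reductase, which supplies DNA precursors, was at 13.04, 13.20 and 13.08 in DMSO and 11.50, 11.47 and 11.55 at LCC. It fell by 1.60 ± 0.07 on the log2 scale (limma adjusted p 6.6e-15), with no overlap between the groups. GINS1, part of the replicative helicase, fell by 1.30 ± 0.07 on the log2 scale from 11.34, 11.57 and 11.50 to 10.23, 10.13 and 10.14 (limma adjusted p 1.3e-12). RFC4, of the clamp loader, fell by 1.19 ± 0.06 (limma adjusted p 3.1e-13).

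BUB1, a kinase of the spindle checkpoint, measured 10.51, 10.83 and 10.78 in DMSO and 8.90, 8.82 and 8.89 at LCC. It fell by 1.84 ± 0.10 on the log2 scale (limma adjusted p 5.0e-13). KIF2C, a kinesin that depolymerises microtubules, fell by 1.495 ± 0.07 from 11.10, 11.26 and 11.27 to 9.69, 9.78 and 9.68 (limma adjusted p 1.1e-13). NUSAP1, a protein of the spindle, fell by 1.28 ± 0.07 (limma adjusted p 3.4e-13). None of the 6 genes described in these lists had overlapping groups. In 16.2% of all genes tested the 3 LCC arrays lay below the 3 DMSO arrays. The 6 were picked for the smallest p of their lists, which favours separate groups. MKI67, the standard proliferation marker, fell by 1.16 and PCNA, the sliding clamp, by 1.24 on the log2 scale.

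Over the days the lists ran as follows, the lists not being tested against each other. At LCC on day 2, 20 of the 31 replication genes fell (median -0.34) but 1 of the 30 mitosis genes did (median -0.16), against 2.94% of genes tested. At day 6 every member of both lists fell (11% of genes tested fell), with medians of -0.94 and -0.92. In the test of the difference between days, the LCC change of 26 of the 31 replication genes and of all 30 mitosis genes was more negative at day 4 than at day 2 (4.71% of genes tested). From day 4 to day 6 the change of 16 of the 30 mitosis genes and 3 of the 31 replication genes became less negative (5.22% of genes tested). Against the mean of DMSO days 2 and 6 all 31 replication genes fell, by a median of -1.41, and all 30 mitosis genes.

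The motif content of the promoters is given for each list, with 2 promoters of each shown to carry the matches. Either of 2 E2F motifs, TTTGGCGC or TTTCCCGC, on either strand, was in 14 of the 28 replication promoters found (50%), in 2 of 25 mitosis promoters (8%) and in 3.07% of the 14697 promoters of genes tested. The 14 replication genes with a motif had a median change of -1.11 and the 14 without one -1.10. The CCAAT box, searched as CCAAT on either strand, was in 20 of 25 mitosis promoters (80%), 17 of 28 replication promoters (60.7%) and 36.1% of promoters of genes tested. Among all genes that fell at least 2-fold, 10.9% of 239 promoters held an E2F motif and 51% a CCAAT box. This set contains members of the replication and mitosis lists, among them GINS1 and BUB1, so its shares are not a separate observation. Of the genes that rose at least 2-fold, 2.43% and 31.2% of 288 promoters did. E2F matches are in capitals in MCM6 (chr2:135876444-135876693, minus strand), a subunit of the replicative helicase, and PCNA (chr20:5126623-5126872, minus strand); CCAAT matches are in capitals in BUB1 (chr2:110678064-110678313, minus strand) and DLGAP5 (chr14:55191586-55191835, minus strand), a protein of the spindle. Each is the 250 bases before the RefSeq start site on GRCh38.p14.
MCM6: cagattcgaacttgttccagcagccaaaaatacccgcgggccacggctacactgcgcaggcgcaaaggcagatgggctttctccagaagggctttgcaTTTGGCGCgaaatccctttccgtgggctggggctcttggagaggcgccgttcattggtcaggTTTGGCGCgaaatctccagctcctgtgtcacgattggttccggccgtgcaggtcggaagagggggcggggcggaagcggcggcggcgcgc
PCNA: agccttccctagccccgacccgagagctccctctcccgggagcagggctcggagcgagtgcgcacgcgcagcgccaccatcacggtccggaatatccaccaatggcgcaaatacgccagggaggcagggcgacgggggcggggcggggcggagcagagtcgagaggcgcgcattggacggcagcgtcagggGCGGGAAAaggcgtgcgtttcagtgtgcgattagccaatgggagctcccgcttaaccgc
BUB1: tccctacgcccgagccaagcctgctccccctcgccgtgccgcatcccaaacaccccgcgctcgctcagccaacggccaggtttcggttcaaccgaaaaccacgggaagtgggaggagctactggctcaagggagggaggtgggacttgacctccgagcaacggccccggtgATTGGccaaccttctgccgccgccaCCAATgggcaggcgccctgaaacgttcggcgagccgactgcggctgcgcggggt
DLGAP5: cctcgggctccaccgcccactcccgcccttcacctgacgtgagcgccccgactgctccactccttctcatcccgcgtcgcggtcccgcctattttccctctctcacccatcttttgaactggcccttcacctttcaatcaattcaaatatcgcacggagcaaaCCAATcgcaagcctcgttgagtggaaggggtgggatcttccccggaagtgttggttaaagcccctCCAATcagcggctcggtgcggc
MCM6 holds TTTGGCGC beginning 152 and 90 bases before the start site, and PCNA holds GCGGGAAA, the other motif on the opposite strand, at 59. BUB1 has its CCAAT boxes at 79 and 54 bases and DLGAP5 at 87 and 22.

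Of 6 CDK inhibitors tested, the brakes of the cell cycle, 4 fell (12.4% of genes tested fell) and none rose. CDKN1B (p27) was at 10.10, 10.36 and 10.27 in DMSO and 9.23, 8.96 and 9.07 at LCC and fell by 1.15 ± 0.12 on the log2 scale (limma adjusted p 3.7e-08). Its change was -0.62, still called, against the mean of DMSO days 2 and 6. CDKN2D (p19) fell by 1.51 ± 0.13 (limma adjusted p 1.8e-09) on 1 of its 2 probe sets. CDKN2A, whose locus is a classical Polycomb target, was at 11.07, 11.13 and 11.04 in DMSO and fell by 0.56 ± 0.07 to 10.53, 10.54 and 10.49 (limma adjusted p 1.0e-06). CDKN1A (p21) fell by 0.41 ± 0.12, from 7.87, 7.69 and 7.72 to 7.51, 7.43 and 7.12 (limma adjusted p 0.0091). The CDKN1A call was lost without LCC array C, where the change was -0.29 (limma adjusted p 0.084), and against the mean of DMSO days 2 and 6, where it was -0.17 (0.21) and 3 of the 6 inhibitors fell.

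Of 12 subunits and cofactors of PRC2 itself 7 fell and 1 rose (12.4% and 16.3% of genes tested). The median change was -0.30. Without DMSO array B, and in a fit of the compared groups alone, 4 fell. EZH2, the drug's target, measured 10.40, 10.77 and 10.76 in DMSO and 10.48, 10.34 and 10.16 at LCC, so that LCC array A lay above the lowest DMSO array. It fell by 0.32 ± 0.10 on the log2 scale (limma adjusted p 0.019), a call that was lost without DMSO array B (0.11), without DMSO array C (0.096), without LCC array C (0.12) and in the fit of the compared groups alone (0.13). EED, which binds the methylated lysine, fell by 0.53 ± 0.09 (limma adjusted p 3.1e-05) and SUZ12, the scaffold subunit, by 0.43 ± 0.09 (limma adjusted p 4.0e-04); both lost the call when their probe sets were averaged. PHF19, which recruits the complex to chromatin, fell by 0.79 ± 0.08, from 10.02, 10.10 and 9.87 to 9.15, 9.10 and 9.37 (limma adjusted p 1.2e-08). RBBP7, a histone-binding subunit, fell by 0.40 ± 0.07 (limma adjusted p 3.2e-05). EZH1, the related methyltransferase, rose by 0.40. The call was lost without DMSO array A and with the mean of probe sets. It was also lost with the actin 3'/5' ratio as a covariate and in the fit of the compared groups alone. Without LCC array C 2 members rose.

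Of 15 PRC1 subunits 6 rose and 3 fell (16.3% and 12.4% of genes tested). CBX7, which reads the PRC2 mark, rose by 0.83 ± 0.11 on the log2 scale, from 7.49, 7.40 and 7.50 to 8.41, 8.27 and 8.21 (limma adjusted p 1.2e-06). PHC1 rose by 0.62 ± 0.09 (limma adjusted p 4.8e-06), and PCGF6, of a variant PRC1, fell by 0.91 ± 0.09 (limma adjusted p 3.4e-08). Among 12 demethylases and opposing modifiers 3 rose and 3 fell, against the same shares of genes tested. NSD2, which methylates lysine 36, fell by 0.88 ± 0.11 on all 6 of its probe sets (limma adjusted p 5.4e-07). KMT2A, a methyltransferase of lysine 4, rose by 0.63 ± 0.14 (limma adjusted p 8.8e-04). KDM6A, a demethylase of the PRC2 mark, fell by 0.54 ± 0.14 (limma adjusted p 0.0038), which was lost with the actin 3'/5' ratio as a covariate (0.051). Without DMSO array A, LCC array A or LCC array B, 1 of these modifiers rose in place of 3. Against the mean of DMSO days 2 and 6, 5 rose (3249 of 18847 genes tested).

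The B cell label held on its markers. All 9 measured B cell markers had mean levels of log2 8 or more in both groups, and 8 of 9 rose (16.3% of genes tested rose), but 4 of 9 did in a fit of the compared groups alone. Of 17 genes of B cell receptor signalling 11 rose and 2 fell (16.3% and 12.4% of genes tested), with a median change of 0.59. BLNK, the adaptor that links the receptor to downstream kinases, measured 10.57, 10.90 and 10.92 in DMSO and 12.04, 12.02 and 11.75 at LCC. It rose by 1.14 ± 0.09 on the log2 scale (limma adjusted p 6.3e-10). The kinase BTK rose by 0.73 ± 0.07, from 10.69, 10.89 and 10.89 to 11.59, 11.59 and 11.47 (limma adjusted p 7.6e-09). BLK, a Src-family kinase of B cells, rose by 0.77 ± 0.07 (limma adjusted p 1.4e-09). CD79B, a signalling chain of the receptor, rose by 0.71 ± 0.08 (limma adjusted p 5.0e-08), while its other probe sets changed by 0.05 and -0.14. CD37, a tetraspanin of mature B cells, rose by 0.87 ± 0.09 on 1 of its 2 probe sets (limma adjusted p 1.7e-08). The 2 that fell were PIK3CD, by 0.82, and MALT1, by 0.68.

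The germinal centre list had 7 rises and 3 falls among 15 (16.3% and 12.4% of genes tested). BACH2, a repressor that holds B cells short of the plasma cell fate, measured 10.05, 10.54 and 10.62 in DMSO and 12.27, 12.09 and 11.93 at LCC. It rose by 1.69 ± 0.13 on the log2 scale (limma adjusted p 3.6e-10). SERPINA9, a germinal centre serpin, rose by 0.73 ± 0.07 (limma adjusted p 7.0e-09). MEF2C, a transcription factor of B cell proliferation, fell by 0.74 ± 0.07, from 11.50, 11.68 and 11.63 to 10.92, 10.88 and 10.79 (limma adjusted p 4.0e-09). Its change was -0.29, still called, against the mean of DMSO days 2 and 6. BCL6, the central repressor of the germinal centre, was at 12.94, 13.04 and 13.04 in DMSO and 13.12, 13.09 and 12.99 at LCC, with overlapping groups and a change of 0.064 (limma adjusted p 0.57); against the mean of DMSO days 2 and 6 it was 0.33 (3.6e-05).

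On the plasma cell list 5 of 18 rose and 4 fell (16.3% and 12.4% of genes tested), with a median change of 0.07. Without DMSO array B 2 fell. PRDM1, the driver of plasma cell differentiation, overlapped between groups at 7.44, 7.25 and 7.04 in DMSO and 6.99, 7.23 and 7.07 at LCC and changed by -0.15 (limma adjusted p 0.41). IRF4, a regulator of the same fate, changed by -0.37 (limma adjusted p 0.06), and by -0.45 without LCC array C (0.042). TNFRSF17 (BCMA), a survival receptor of plasma cells, rose by 1.19 ± 0.12 on the log2 scale from 9.88, 10.32 and 10.21 to 11.43, 11.29 and 11.25 (limma adjusted p 1.4e-08). Its change was 0.52, still called, against the mean of DMSO days 2 and 6. CD27, carried by memory and plasma cells, rose by 0.94 ± 0.06 from 11.36, 11.46 and 11.52 to 12.40, 12.43 and 12.33 (limma adjusted p 1.7e-11). SSR4, of the translocon at the endoplasmic reticulum, rose by 0.61 ± 0.07 (limma adjusted p 4.5e-08). The memory and activation list had 7 falls and 3 rises among 16 (12.4% and 16.3% of genes tested). Its median change was -0.08, and the lists were not tested against each other. CD83 fell by 0.60 ± 0.07 (limma adjusted p 6.6e-08) and CCR7, the homing receptor for lymph nodes, by 1.16 ± 0.15 (limma adjusted p 1.7e-06). Against the mean of DMSO days 2 and 6 CCR7 changed by -0.17 (0.38).

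Of 14 MHC class II genes 12 rose and 1 fell (16.3% and 12.4% of genes tested), with a median change of 0.32. In a fit of the compared groups alone 7 rose. CIITA, the master activator of class II, was at 7.78, 8.05 and 8.18 in DMSO and 8.71, 8.85 and 8.43 at LCC. It rose by 0.66 ± 0.11 on the log2 scale (limma adjusted p 3.7e-05), while its other probe sets changed by -0.07 and 0.01. HLA-DOA, a regulator of peptide loading, rose by 0.89 ± 0.07, from 9.63, 9.82 and 9.81 to 10.70, 10.61 and 10.64 (limma adjusted p 2.7e-10), on 2 of its 5 probe sets. HLA-DMA, which loads peptides, rose by 0.39 ± 0.07 (limma adjusted p 6.8e-05). At day 6 the class II median was 0.87, and the rise of 10 of the 14 was larger there than at day 4 (5.22% of genes tested). Class II genes also moved in DMSO. There 9 of 14 rose from day 2 to day 4 (2.74% of genes tested) and 9 fell from day 4 to day 6 (10.4%).

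On the list of MHC class I and its peptide supply 7 of 17 tested members rose and 2 fell (16.3% and 12.4% of genes tested). Without DMSO array B, DMSO array C or LCC array B 1 fell. TAP2, of the peptide transporter, rose by 0.63 ± 0.10 on its brightest probe set (limma adjusted p 1.3e-05). Its other probe sets changed by 0.05, 0.08 and 0.04. The immunoproteasome subunits PSMB10 and PSMB8 rose by 0.45 and 0.40 on the log2 scale (limma adjusted p 3.7e-05 and 3.2e-04). None of these 3 kept its call against the mean of DMSO days 2 and 6. There 3 class I genes rose and 5 fell (3249 and 3721 of 18847 genes tested). Of 28 interferon response genes 7 rose (16.3% of genes tested rose) and 3 fell, and without DMSO array B or LCC array C 1 fell. Against the mean of DMSO days 2 and 6, 13 of the 28 rose and 4 fell (3249 and 3721 of 18847 genes tested). RSAD2, an antiviral enzyme, rose by 1.15 ± 0.12 on the log2 scale from 4.98, 5.16 and 4.86 to 6.34, 6.10 and 6.01 (limma adjusted p 3.1e-08). BST2 (tetherin) rose by 0.68 ± 0.09 (limma adjusted p 2.9e-06) and IRF7, an interferon regulator, by 0.63 ± 0.11 (limma adjusted p 3.7e-05).

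NF-kB target genes fell. Of 20, 11 fell (12.4% of genes tested fell) and 1 rose, with a median change of -0.56. The 1 rise, that of CD40, lost its call without DMSO array A, DMSO array C, LCC array A or LCC array C. Against the mean of DMSO days 2 and 6, 4 rose and 12 fell (3249 and 3721 of 18847 genes tested). LTA (lymphotoxin alpha) measured 9.002, 9.15 and 8.95 in DMSO and 7.63, 7.46 and 7.40 at LCC and fell by 1.54 ± 0.09 on the log2 scale (limma adjusted p 1.3e-12). TNF was at 9.03, 9.15 and 9.11 in DMSO and 8.19, 8.10 and 7.82 at LCC and fell by 1.06 ± 0.08 (limma adjusted p 2.6e-10). BCL2A1, an inhibitor of apoptosis, fell by 1.72 ± 0.15, from 7.25, 7.52 and 7.36 to 5.60, 5.61 and 5.77 (limma adjusted p 2.4e-09). NFKB2 and RELB, subunits of NF-kB, fell by 1.35 and 0.81. NF-kB targets were already lower at day 2, when 11 of 20 fell (2.94% of genes tested), and 13 of 20 fell at day 6 (11%). LTA changed by -1.44 at day 2 and -1.36 at day 6 on the log2 scale.

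Of 16 pro-apoptotic genes 3 rose and 4 fell (16.3% and 12.4% of genes tested), and 1 rose without DMSO array A, without LCC array A or in a fit of the compared groups alone. The falls numbered 7 with the mean of probe sets and 8 against the mean of DMSO days 2 and 6 (3721 of 18847 genes tested). BMF, which antagonises BCL2, rose by 1.18 ± 0.11 on the log2 scale from 9.09, 8.77 and 9.16 to 10.17, 10.25 and 10.12 (limma adjusted p 3.1e-09). BIK fell by 0.40 ± 0.08 (limma adjusted p 2.3e-04). BID changed by -0.43 on its brightest probe set (limma adjusted p 2.3e-04) and by 0.13 and 0.35 on the other 2, and their mean changed by 0.017 (0.93), so no direction is given for it. Of 8 anti-apoptotic genes 3 were called lower and none higher (12.4% and 16.3% of genes tested). Without DMSO array A 5 were lower. Against the mean of DMSO days 2 and 6, 4 were lower and 2 higher (3721 and 3249 of 18847 genes tested). The 3 called lower were BCL2A1, BCL2L1 (BCL-XL), which fell by 0.54 ± 0.11 (limma adjusted p 2.5e-04), and CFLAR, which changed by -0.74 on its brightest probe set (limma adjusted p 1.3e-07). Of the 14 probe sets of CFLAR 3 pointed down, and their mean changed by 0.25 (0.0034), so no direction is given for this gene.

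Genes of growth restraint, many of them FOXO targets, had 12 rises and 4 falls among 20 (16.3% and 12.4% of genes tested). Their median change was 0.33. Without DMSO array A 7 rose. Against the mean of DMSO days 2 and 6, 15 rose and 1 fell (3249 and 3721 of 18847 genes tested). TSC1, a brake on mTORC1, measured 9.33, 9.78 and 9.75 in DMSO and 11.25, 11.26 and 10.76 at LCC and rose by 1.47 ± 0.12 on the log2 scale (limma adjusted p 8.5e-10). SESN1, a stress-induced inhibitor of mTORC1, rose by 1.18 ± 0.09 from 6.74, 6.53 and 6.72 to 7.94, 7.75 and 7.84 (limma adjusted p 2.8e-10). TXNIP, which limits glucose uptake, rose by 0.34 ± 0.07 (limma adjusted p 6.4e-04), against 0.97 at day 2 and 1.49 at day 6. KLF6, a growth-suppressive zinc finger factor, fell by 1.67 ± 0.12 from 9.48, 9.97 and 9.96 to 8.24, 8.22 and 7.95 (limma adjusted p 1.2e-10). Its change was -0.45, still called, against the mean of DMSO days 2 and 6. Of 17 p53 targets 5 rose and 4 fell (16.3% and 12.4% of genes tested). Without LCC array C 2 fell, and against the mean of DMSO days 2 and 6, 8 rose (3249 of 18847 genes tested). TP53INP1 rose by 1.37 ± 0.11 (limma adjusted p 3.7e-10), and DDB2, a sensor of damaged DNA, fell by 1.21 ± 0.12 (limma adjusted p 7.4e-09).

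MYC, the growth-promoting factor, measured 11.72, 11.58 and 11.28 in DMSO and 11.91, 11.68 and 12.23 at LCC; LCC array B lay below the highest DMSO array. Its rise of 0.41 ± 0.12 on the log2 scale (limma adjusted p 0.0083) lost the call without DMSO array C (0.080), without LCC array C (0.092) and in the fit of the compared groups alone (0.092), and against the mean of DMSO days 2 and 6 the change was -0.20 (0.14). Of 9 genes of its network 4 rose and 1 fell (16.3% and 12.4% of genes tested). MAX, its partner, rose by 0.67 ± 0.07 (limma adjusted p 1.9e-08) and MXD1, an antagonist, by 0.66 ± 0.12 (limma adjusted p 1.5e-04); MXD3 fell by 0.76 ± 0.08 (limma adjusted p 8.0e-08).

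Ribosome biogenesis genes, many of them MYC targets, were called higher at LCC in 9 of 18 (16.3% of genes tested) and lower in none. Their median change was 0.20. POLR1A, the largest subunit of RNA polymerase I, was at 7.64, 7.90 and 7.71 in DMSO and 8.96, 8.92 and 8.85 at LCC, a change of 1.16 ± 0.08 (limma adjusted p 1.2e-11). PES1 and RRS1 were higher by 0.50 and 0.49 (limma adjusted p 5.5e-06 and 1.3e-05). In DMSO 15 of the 18 fell from day 2 to day 4 (11.3% of genes tested) and 17 rose from day 4 to day 6 (14.7%). Against the mean of DMSO days 2 and 6 none of the 18 rose and 15 fell (3249 and 3721 of 18847 genes tested). The changes were 0.16 for POLR1A, -0.35 for PES1 and -0.17 for RRS1, and the direction of this list turned with the control. Without DMSO array A 1 member was called lower. At LCC on day 2, 4 fell (2.94% of genes tested) and none rose, and on day 6, 8 fell (11%) and none rose.

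Of 16 genes of the unfolded protein and ATF4 response 11 fell and 1 rose (12.4% and 16.3% of genes tested). Their median change was -0.69. SLC7A11, the cystine importer, measured 8.57, 8.95 and 9.11 in DMSO and 5.88, 5.93 and 5.88 at LCC and fell by 2.98 ± 0.13 on the log2 scale, 7.9-fold (limma adjusted p 3.0e-14), on all 3 probe sets. CHAC1, which degrades glutathione, was at 8.29, 8.36 and 8.30 in DMSO and 6.02, 6.14 and 6.47 at LCC and fell by 2.10 ± 0.10 (limma adjusted p 7.3e-14). DDIT3 (CHOP), a factor of prolonged stress, fell by 1.37 ± 0.08 (limma adjusted p 2.4e-12). PSAT1 and PHGDH, of serine synthesis, fell by 1.49 and 0.84, and ASNS, asparagine synthetase, by 0.74. HSPA5, the chaperone of the endoplasmic reticulum, was among the 4 that were not called. In DMSO 7 of the 16 rose from day 2 to day 4 (2.74% of genes tested) and 9 fell from day 4 to day 6 (10.4%). Against the mean of DMSO days 2 and 6 SLC7A11 changed by -1.76, CHAC1 by -0.90 and DDIT3 by -0.23, each still called.

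The CHAC1 promoter is shown because it holds the ATF4 motif searched, TGATGNAA on either strand. That motif was in 4 of 15 promoters of the list (26.7%), those of ASNS, ATF3, CHAC1 and SLC3A2, in 2.52% of promoters of genes tested and in 3.67% of all promoters. In CHAC1 (chr15:40953221-40953470, plus strand, GRCh38.p14, RefSeq) it lies on the opposite strand as TTGCATCA, beginning 209 bases before the start site, in capitals.
CHAC1: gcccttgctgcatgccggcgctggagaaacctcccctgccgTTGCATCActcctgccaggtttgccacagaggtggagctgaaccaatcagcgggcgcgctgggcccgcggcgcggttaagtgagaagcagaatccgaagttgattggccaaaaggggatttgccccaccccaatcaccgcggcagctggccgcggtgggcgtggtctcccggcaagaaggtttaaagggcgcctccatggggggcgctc

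Glycolysis genes fell, most by little: 13 of 20 fell and 2 rose (12.4% and 16.3% of genes tested), with a median change of -0.26. In a fit of the compared groups alone 7 fell. ENO2, an enolase isoform, fell by 1.06 ± 0.09 on the log2 scale from 10.17, 10.50 and 10.37 to 9.46, 9.34 and 9.07 (limma adjusted p 7.5e-10). PFKP and PFKM, isoforms of phosphofructokinase, moved apart: PFKP fell by 0.45 ± 0.07 (limma adjusted p 2.7e-05) on 1 of 2 probe sets and PFKM rose by 0.40 ± 0.07 (limma adjusted p 4.4e-05). Cholesterol genes were divided, with 5 of 18 higher and 5 lower (16.3% and 12.4% of genes tested), 3 lower without DMSO array B. TM7SF2, a sterol reductase, rose by 1.27 ± 0.07 from 9.30, 9.42 and 9.36 to 10.61, 10.68 and 10.59 (limma adjusted p 1.7e-12). LSS, lanosterol synthase, rose by 0.95 ± 0.10 (limma adjusted p 1.7e-08) and DHCR7, the last step to cholesterol, by 0.53 ± 0.09 (limma adjusted p 3.2e-05). With the mean of DMSO days 2 and 6 as control, 12 of the 18 rose and 2 fell (3249 and 3721 of 18847 genes tested).

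**Figure D4:**
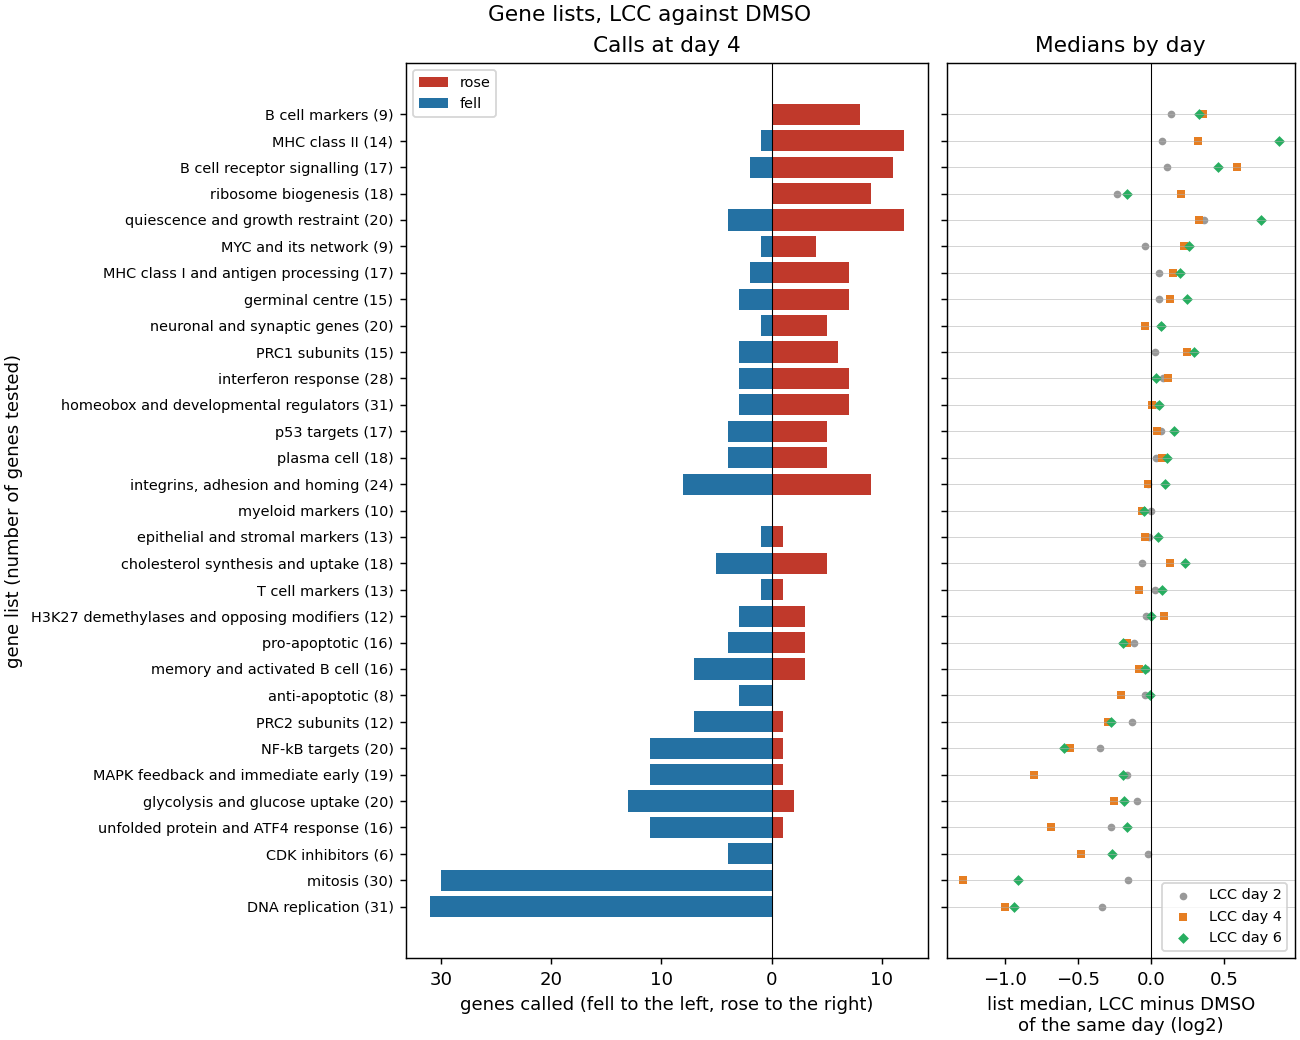
Left, the number of genes of each list called at LCC against DMSO on day 4, risen to the right in red and fallen to the left in blue, with the number tested in brackets. Right, the median log2 change of each list, LCC minus DMSO of the same day, at days 2, 4 and 6; the day 4 medians of the replication and mitosis lists are -1.001 and -1.29.

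Among 20 neuronal and synaptic genes 5 rose and 1 fell (16.3% and 12.4% of genes tested), and 14 were not called, with a median of -0.04; without DMSO array A or LCC array C 2 fell. The 5 were DLG2, ABAT, CNR1, ATXN1 and TRIM9. ABAT, which breaks down the transmitter GABA, measured 6.74, 7.06 and 7.03 in DMSO and 9.25, 9.15 and 9.16 at LCC and rose by 2.25 ± 0.14 on the log2 scale (limma adjusted p 6.8e-12). CNR1, the cannabinoid receptor, was at 7.60, 7.69 and 7.95 in DMSO and 9.73, 9.71 and 9.23 at LCC and rose by 1.82 ± 0.16 (limma adjusted p 1.4e-09). Its change was larger on the other days, 2.42 at day 2 and 3.98 at day 6. Against the mean of DMSO days 2 and 6 the day 4 LCC arrays were higher by 4.22 on the log2 scale. The CNR1 level in DMSO was thus higher at day 4 than in that mean. Of 31 homeobox and developmental regulators 7 rose and 3 fell (16.3% and 12.4% of genes tested), and 21 were not called. ID2, an inhibitor of E proteins, rose by 0.88 ± 0.10 (limma adjusted p 1.1e-07), and RUNX3 fell by 0.81 ± 0.07 (limma adjusted p 2.7e-09). TNFRSF21, a death receptor, stayed dim in both groups, at 5.01, 4.95 and 4.86 and 5.02, 4.96 and 4.96.

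Of 24 adhesion and homing genes 9 rose and 8 fell (16.3% and 12.4% of genes tested). CXCR4, the chemokine receptor of the germinal centre dark zone, measured 11.40, 11.54 and 11.47 in DMSO and 9.87, 9.89 and 9.54 at LCC. It fell by 1.71 ± 0.13 on the log2 scale (limma adjusted p 1.5e-10). ICAM2 fell by 0.60 ± 0.08 (limma adjusted p 7.9e-07) and CD99 by 0.56 ± 0.07 (limma adjusted p 1.6e-06). CXCR4, ICAM2 and CD99 changed by -1.03, -0.25 and -0.35, still called, against the mean of DMSO days 2 and 6. CCR6 and CXCR5, receptors for B cell positioning, rose by 0.95 and 0.60.

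Among markers of other cell types a mean of log2 8 or more in both groups was found for 1 of 13 T cell markers tested, 3 of 13 epithelial and stromal markers and none of 10 myeloid markers, and 4 markers in all were called. Of the 10 myeloid markers none was called, and CD14, S100A9 and CSF1R were at 4.92, 5.20 and 5.07, 4.66, 4.58 and 4.48 and 6.93, 6.43 and 6.51 in DMSO. Their summed intensity was 482 to 545 in DMSO and 444 to 499 at LCC. Of the T cell markers LCK alone rose, by 0.58 ± 0.07 from 11.49, 11.59 and 11.55 to 12.18, 12.10 and 12.10 (limma adjusted p 4.3e-07); it is expressed in some B lymphomas and made up most of the summed intensity of 3996 to 4069 in DMSO and 5371 to 5609 at LCC. CD7 fell by 0.21 ± 0.08 (limma adjusted p 0.039) and lost the call without DMSO array A (0.11), DMSO array B (0.13), LCC array A (0.23) or LCC array C (0.058), and CD8B changed by -0.25 (limma adjusted p 0.099). Of the epithelial and stromal markers, with a summed intensity of 2970 to 3386 in DMSO and 2748 to 3442 at LCC, DCN, the proteoglycan decorin, rose by 1.62 ± 0.11 from 8.93, 8.93 and 8.75 to 10.49, 10.24 and 10.74 (limma adjusted p 3.9e-11). VIM, vimentin, fell by 1.54 ± 0.10 from 10.70, 10.75 and 10.60 to 9.10, 9.03 and 9.32 (limma adjusted p 6.0e-12), but changed by -0.033 against the mean of DMSO days 2 and 6. CDH1, the epithelial cadherin, was dim and changed by -0.22 (limma adjusted p 0.12), and by -0.34 without DMSO array C (0.013).

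The dose labelled 10xLCC was measured at the same day and differed from LCC in 863 genes (4.58%), 519 of them higher at 10xLCC (2.75%) and 344 lower (1.83%); at least 2-fold differences numbered 102 and 6. Against DMSO, whose arrays both comparisons share, 10xLCC differed in 6317 genes (33.5%). The 4 genes with the largest excess at 10xLCC showed no call at LCC. PRKAR2B, a regulatory subunit of protein kinase A, was at 4.98, 4.80 and 4.91 in DMSO, 4.78, 4.68 and 4.75 at LCC and 7.69, 7.37 and 7.43 at 10xLCC, 2.76 ± 0.14 higher at the higher dose on the log2 scale (limma adjusted p 2.1e-12). TUBB2B, a beta tubulin, followed the same pattern at 5.67, 5.51 and 5.62 and 8.17, 7.99 and 8.31 (difference 2.56 ± 0.12, limma adjusted p 8.9e-13). LCC and DMSO overlapped or nearly touched in these genes while 10xLCC stood apart. FABP6, a bile acid-binding protein, was higher by 2.29 ± 0.19 (limma adjusted p 7.1e-09) and ZNRF3, a ligase that removes Wnt receptors, by 2.26 ± 0.13 (limma adjusted p 2.2e-11).

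Lower at 10xLCC than at LCC were LRRTM4-AS1, with a difference of -1.33 ± 0.24 on the log2 scale (limma adjusted p 5.9e-04), and FCRL1, an Fc receptor-like protein of B cells, with 8.10, 7.98 and 7.79 at LCC and 6.67, 6.83 and 6.64 at 10xLCC (-1.24 ± 0.13, limma adjusted p 3.9e-07). IGHV1-69, an immunoglobulin variable segment, differed by -1.17 ± 0.20 (limma adjusted p 3.0e-04) and KYNU, of tryptophan breakdown, by -1.12 ± 0.16 (limma adjusted p 4.3e-05). Of the 30 mitosis genes 24 were lower still at 10xLCC (1.83% of genes tested were), with a median difference of -0.48. Of the 31 replication genes 8 were, with a median of -0.25. CDKN1A was higher at 10xLCC, at 8.18, 8.25 and 8.15, by 0.84 ± 0.12 on the log2 scale (limma adjusted p 2.7e-05). SESN1 reached 8.96, 8.98 and 8.91, higher than at LCC by 1.11 ± 0.09 (limma adjusted p 8.8e-09). EHD3, JMY and AIG1 were higher at 10xLCC by 0.59, 1.15 and 0.90 (limma adjusted p 0.0053, 3.9e-05 and 9.0e-05), whereas ITGB8 differed by -0.61 (limma adjusted p 0.19). EGR1 was 0.81 higher at 10xLCC than at LCC (limma adjusted p 0.0059), and FOS differed by -0.022 (limma adjusted p 0.97), with a standard error of 0.11.

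The LCC change itself differed between days. It was larger in the positive direction at day 4 than at day 2 in 1476 genes (7.83%) and in the negative direction in 887 (4.71%), together 2363 (12.5%). MYOT gained 2.62 ± 0.40 on the log2 scale over its day 2 change (limma adjusted p 5.2e-05), LOC285097 2.51 ± 0.37 (limma adjusted p 3.5e-05), FNDC1 2.19 ± 0.16 (limma adjusted p 4.3e-09) and DLG2 2.07 ± 0.20 (limma adjusted p 1.4e-07). In the other direction stood RGS1, EGR1, CD69 and FOS, with differences of -4.81, -3.06, -2.74 and -2.73. From day 4 to day 6 the change differed in 1526 genes (8.1%), 984 upward (5.22%) and 542 downward (2.88%). EGR1, RGS1, FOS and CD69 led upward, by 5.28, 3.49, 3.11 and 2.93. All of these differences contain the DMSO day 4 arrays, whose high levels of the 4 genes are given with the day courses.

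Downward from day 4 to day 6 the largest difference was that of ZNF70, a zinc finger protein, whose change went from 2.25 at day 4 to 0.73 at day 6 (difference -1.52, limma adjusted p 7.4e-06). Its level at LCC was 9.08 ± 0.24 at day 4 and 8.89 ± 0.06 at day 6, while DMSO went from 6.83 ± 0.25 to 8.15 ± 0.11 (SD, n = 3 arrays). CYP4V2, a fatty acid hydroxylase, went from a change of 1.28 to 0.013 (difference -1.27, limma adjusted p 7.2e-07), again with a DMSO level that was lower at day 4 (6.84 ± 0.17) than at day 6 (7.90 ± 0.08). LOC101927769 differed by -1.34 (limma adjusted p 0.0031). ND6, a mitochondrially encoded subunit of complex I, changed by 0.033 at day 4 and -1.26 at day 6 (difference -1.30, limma adjusted p 0.0018).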

How the data were processed

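GCRMA is the one tool named in the submitters' processing notes, without a version. Per the labels' protocols RNA was amplified and labelled with biotin. The authors deposited 1 linear intensity per probe set and array, between 5.79 and 31846, which was taken to log2 without a pseudocount. Normalisation of this kind removes any change in total RNA per cell. Of 54675 probe sets, 41097 name 1 gene, 1801 several and 11777 none; the 19775 genes (19735 matched in RefSeq) were each represented by their brightest probe set, by mean over the 27 WSU-DLCL2 arrays, and kept at log2 4 or more on at least 3 arrays, leaving 18847. A model of the 9 groups of this line (limma 3.58.1, R 4.3.3; 18 residual degrees of freedom) gave each change, its standard error and the Benjamini-Hochberg adjusted p over all genes tested, with a call at 0.05. Alternatives changed the filter, probe sets, scaling, variance estimate, replicate block, pseudocount, covariate, arrays fitted and control. The script was tested on simulated data.

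Pairing by replicate letter was not assumed. Deviations of same-lettered LCC and DMSO arrays correlated at -0.49, 0.00 and -0.40, and those of differently lettered arrays at -0.33 to 0.49. With 3 arrays a group these values cannot settle whether the letters pair the arrays. The number of arrays limits the precision; with 3 against 3 the smallest exact permutation p is 0.1. Named genes were the 15 largest rises and 12 largest falls among called genes with separate groups, 4 in each direction for each of 3 other comparisons, up to 3 per list with the smallest p, and 13 genes always given. The members and 31 lists were chosen with earlier results of these data known. Motifs were counted in RefSeq promoters (GRCh38.p14).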

Additional observations from a re-analysis of the deposited data

Results flagged for a closer look

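The LCC change of day 4 differed from that of day 2 in 2363 genes and from that of day 6 in 1526, each by limma's test of the difference. Between days 2 and 4 the largest differences named were 2.62 for MYOT, 2.51 for LOC285097, 2.19 for FNDC1 and 2.07 for DLG2 upward, and -4.81 for RGS1, -3.06 for EGR1, -2.74 for CD69 and -2.73 for FOS downward, on the log2 scale. Between days 4 and 6 they were 5.28 for EGR1, 3.49 for RGS1, 3.11 for FOS and 2.93 for CD69 upward, and -1.52 for ZNF70, -1.34 for LOC101927769, -1.30 for ND6 and -1.27 for CYP4V2 downward. DMSO levels of EGR1, RGS1, FOS and CD69 peaked at day 4, and the part of the DMSO cultures' own course in these differences was not tested.

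Outside the genes analysed, 2302 of 11804 probe sets that name several genes or none (19.5%) were called at LCC against DMSO on day 4, 1749 of them higher and 553 lower. The largest were 237201_at, with a change of 3.20 ± 0.26 (limma adjusted p 2.9e-09), and 243929_at, with 2.89 ± 0.23 (limma adjusted p 1.6e-09); what they measure was not determined here.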

How the results depend on the processing

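Over the alternatives planned, the number of genes called at LCC on day 4 ranged from 3958, with only the groups compared in the fit, to 5763, with arrays centred on bright genes, and was 6970 (3249 up, 3721 down) against the mean of DMSO days 2 and 6, an alternative chosen after seeing the data; 4247 of these genes were called in both, 4076 in the same direction. With the letter as a replicate block it was 5322, and the block changed no call among the named genes. Leaving out each array gave 4592 to 5313 genes for LCC against DMSO, 595 to 865 for 10xLCC against LCC, 1833 to 2501 for day 4 against day 2 and 1141 to 1669 for day 6 against day 4. With only the groups compared, 10xLCC against LCC fell to 524 genes and day 6 against day 4 to 878; fewer arrays were fitted.

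Directions turned as follows. With the mean of probe sets BID changed by 0.017 and CFLAR by 0.25; with the actin 3'/5' covariate BCL6 changed by -0.0039. Against the mean of DMSO days 2 and 6 EGR3 changed by 0.077, PES1 by -0.35, RRS1 by -0.17, CD14 by -0.078, CDH1 by 0.070, TNFRSF21 by -0.041 and MYC by -0.20.

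The actin 3'/5' log2 ratio was -0.02 ± 0.09 in DMSO and 0.12 ± 0.17 at LCC, and the GAPDH ratio 0.07 ± 0.05 and 0.17 ± 0.06 (SD, n = 3); the part of RNA quality in the results was tested with the actin ratio as a covariate only. Limits: 1 line, 3 arrays a group, no concentration, no histone mark, and a DMSO day 4 group that differs from its neighbours. Dim genes were called least.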
